A study of Homo sapiens with 24 samples.

Results

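The integrin genes that fibroblasts use to hold on to their matrix were followed here as 10 rows of gene counts, chosen by symbol: *ITGA1*, *ITGA2*, *ITGA3*, *ITGA4*, *ITGA5*, *ITGA11*, *ITGAV*, *ITGB1*, *ITGB3* and *ITGB5*. They are 10 of 25702 counted identifiers, and all 10 were among the 13356 genes that passed the filter on low counts. RNA was sequenced from 24 samples of IMR90 human lung fibroblasts, an established line at passage 23 to 28. Every sample carried a retroviral ER:HRAS(G12V) vector, a fusion of mutant HRAS to the oestrogen receptor that is switched on by 4-hydroxytamoxifen (4OHT). Growing cells (n = 6) also carried the empty MSCV vector and got no agent, and shHMGA1 cells (n = 6) carried MSCV miR30 shHMGA1, a hairpin against the chromatin protein HMGA1, and got no agent. RIS cells (n = 6, for RAS-induced senescence) had the empty vector and 6 days of 4OHT, and RIS+shHMGA1 cells (n = 6) had the hairpin and 6 days of 4OHT. All groups come from a single cell line, and only 1 hairpin construct is named.

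Integrins are cell surface receptors made of an α and a β subunit, each a single-pass membrane protein. The α subunit largely sets which ligand is bound, and the short tail of the β subunit binds talin and kindlin, which link the receptor to actin in focal adhesions. Among these genes, the products of *ITGA1*, *ITGA2* and *ITGA11* pair with that of *ITGB1* to make the collagen receptors α1β1, α2β1 and α11β1. The product of *ITGA3* makes the laminin receptor α3β1, that of *ITGA5* the classical fibronectin receptor α5β1, and that of *ITGA4* the receptor α4β1, which binds VCAM1 and a spliced segment of fibronectin. *ITGAV* encodes αV, which takes β1, β3 or β5 as partner and binds vitronectin, fibronectin and latent TGF-β. RAS-induced senescence is a lasting arrest of the cell cycle with a strong secretory programme, and how senescent fibroblasts hold to collagen and fibronectin depends on which of these subunits they make.

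Total counts ranged from 8698070 to 23103424 per library. *HMGA1* lay between 639 and 861 CPM (read counts scaled to the normalised size of the library) in growing cells and between 641 and 786 in RIS, against 54.4 to 143 in shHMGA1 and 59.98 to 262 in RIS+shHMGA1. A pair of libraries stood apart from their groups. On the first principal component, growing replicate 4 had a score of 77.3 where the other 5 growing libraries ran from −84.3 to −57.2, and RIS replicate 2 had a score of −77.1 where the other 5 RIS libraries ran from 16.9 to 62.1. The summed level of 5 proliferation genes was 94.5 CPM in growing replicate 4 against 418 to 714 in the other growing libraries, and 553 CPM in RIS replicate 2 against 59.1 to 92.2 in the other RIS libraries. Over these scores and sums and those of 4 secretome and 10 fibroblast genes, RIS replicate 2 lay within the range of the other 5 growing libraries in 4 of 4 measures. Growing replicate 4 was nearer to the median of the other RIS libraries than to that of the other growing libraries in 4 of 4, though within their range in 0 of 4. Both were kept in their labelled groups, whether the labels are right was not tested, and results that rest on them are given with and without them. Because the pair was picked by its expression, leaving it out can by itself widen the differences between growing and RIS. The p-values without the pair can therefore be too small. All 10 fibroblast markers were above 1 CPM in every group. The 7 leukocyte and platelet markers summed to 0.421 to 1.49 CPM, with *GP9* at 0 in all libraries, the 6 epithelial markers to 33.5 to 52.5 CPM and the 5 endothelial markers to 14.5 to 125 CPM. Marker sums themselves moved with 4OHT. The fibroblast sum ran from 14332 to 20307 CPM in shHMGA1 and from 4691 to 6072 CPM in RIS+shHMGA1, where 8 of the 10 genes had all libraries lower, *VIM* overlapped (4046 to 4667 against 3174 to 4098 CPM) and *FAP* had all libraries higher (55.6 to 94.7 against 134 to 178 CPM). The endothelial sum ran from 70.4 to 125 CPM in shHMGA1 and from 15.4 to 23.3 CPM in RIS+shHMGA1, nearly all of it *TEK* (69.9 to 123 against 13.6 to 21.8 CPM). The part of these markers in the results below was not tested. In bulk RNA, fewer cells making a transcript and less transcript per cell cannot be told apart.

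On GRCh37, *ITGA1* (chr5:52083750-52255039) and *ITGA2* (chr5:52285170-52390609) are neighbours on the plus strand, *ITGA11* is at chr15:68588870-68724502 and *ITGA3* at chr17:48133332-48167845. *ITGA4* is at chr2:182321929-182403667, *ITGAV* on the same chromosome at chr2:187454737-187545628, and *ITGA5* at chr12:54789045-54813050. The β subunit genes are *ITGB1* at chr10:33176201-33294720, *ITGB3* at chr17:45331193-45391109 and *ITGB5* at chr3:124480795-124620265. Some exons are shared with other genes: 2813 bases of *ITGA4* lie opposite *CERKL*, and 499 bases of *ITGA1* lie on the same strand as *PELO*. In *ITGB3*, 2266 bases lie on the same strand as a gene without a symbol, whose level is not given here. *CERKL* was at 0.386 to 7.57 CPM and *PELO* at 96.8 to 180 CPM across the libraries. The strand setting of the counting is not given in the sources used here, and the part of shared reads in the values was not tested.

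Promoter windows of 300 bases, mostly before the start of transcription, were taken from RefSeq on GRCh38.p14 for 8 of the 10 genes, in 12 windows. *ITGA3* and *ITGB3* had no entry. They were searched on both strands for TGANTCA (AP-1), CATTCC (TEAD) and TTGCNNAA (C/EBP), motifs of factors that act at many fibroblast genes. TGANTCA was in 1 of the 12 windows and in 7.71% of 35116 RefSeq windows of this length, CATTCC in 2 and in 14%, and TTGCNNAA in 3 and in 10.5%. The *ITGA5* window held all of them once, the *ITGB1* window below held CATTCC, and the *ITGA2* window and a window of *ITGB5* held TTGCNNAA. The windows of *ITGA4*, the member with the largest difference after 4OHT, of *ITGA5*, the member called lower with the hairpin in 4OHT-treated cells, and of *ITGB1*, the most abundant member, are shown 5′ to 3′ on the strand of the gene, with motif matches in capitals. They lie at chr2:181457136-181457435 (plus strand), chr12:54419217-54419516 (minus strand) and chr10:32958181-32958480 (minus strand). A match describes the letters of the window and is no evidence of binding.

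ITGA4: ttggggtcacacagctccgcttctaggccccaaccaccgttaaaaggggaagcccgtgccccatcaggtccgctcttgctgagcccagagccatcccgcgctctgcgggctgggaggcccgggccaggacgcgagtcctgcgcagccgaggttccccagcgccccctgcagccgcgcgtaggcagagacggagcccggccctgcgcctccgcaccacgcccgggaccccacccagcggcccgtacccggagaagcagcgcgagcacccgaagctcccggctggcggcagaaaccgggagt
ITGA5: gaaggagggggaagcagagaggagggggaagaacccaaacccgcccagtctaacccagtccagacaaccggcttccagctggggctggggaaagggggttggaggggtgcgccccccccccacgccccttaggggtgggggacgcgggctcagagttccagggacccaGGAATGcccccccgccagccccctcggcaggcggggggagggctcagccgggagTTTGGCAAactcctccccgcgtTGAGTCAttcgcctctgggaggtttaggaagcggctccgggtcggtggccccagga
ITGB1: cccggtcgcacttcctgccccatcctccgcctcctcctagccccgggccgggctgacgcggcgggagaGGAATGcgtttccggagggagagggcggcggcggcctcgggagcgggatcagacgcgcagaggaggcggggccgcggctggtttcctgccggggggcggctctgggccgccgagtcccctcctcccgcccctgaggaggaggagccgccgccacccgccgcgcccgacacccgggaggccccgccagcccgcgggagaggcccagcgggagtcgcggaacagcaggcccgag

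Levels of different genes were compared as CPM per kilobase of the canonical transcript. In growing cells *ITGB1* was highest at 556 ± 64.1 CPM per kb (SD, n = 6), followed by *ITGA5* at 188 ± 53.5, *ITGB5* at 103 ± 39.5, *ITGA2* at 77.7 ± 27.0 and *ITGA3* at 73.6 ± 29.4. Below these came *ITGAV* at 40.8 ± 15.4, *ITGA11* at 26.6 ± 9.99, *ITGA1* at 23.1 ± 8.47, *ITGB3* at 18.0 ± 4.53 and *ITGA4* at 4.38 ± 2.01. The steps from *ITGB1* to *ITGA5*, from *ITGA5* to *ITGB5* and from *ITGB3* down to *ITGA4* held in 6 of 6 growing libraries. Without replicate 4 the growing means were in the same order, from 572 ± 56.6 CPM per kb for *ITGB1* (SD, n = 5) to 5.12 ± 0.95 for *ITGA4*. *ITGA2* and *ITGA3* could not be ordered, since *ITGA2* was higher in only 3 of 6. Among the 4OHT-treated hairpin cells, the order of *ITGA2* over *ITGB5*, of *ITGA11* over *ITGB3* and of *ITGB3* over *ITGA1* likewise held in 3 of 6 libraries each. *ITGB1*, *ITGA5* and, at the other end, *ITGA4* kept the first, second and last place in all 4 groups, also without growing replicate 4 and RIS replicate 2. With the union of all annotated exons as the length, *ITGB1* stayed first and *ITGA4* last in every group, and *ITGAV* moved from place 6 to place 8 in growing cells.

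Because αs other than αV pair, among these genes, with β1 alone, the summed level of *ITGA1*, *ITGA2*, *ITGA11*, *ITGA3*, *ITGA4* and *ITGA5* was set against *ITGB1* in each library, a measure chosen after the values were seen. The sum was 37.5% of *ITGB1* in the lowest growing library, 70.3% at the median and 104% in the highest, and 60.7%, 65.9% and 76.8% in shHMGA1. In RIS the lowest, median and highest were 40.2%, 44.7% and 85.4%, and in RIS+shHMGA1 37.4%, 43.8% and 52.0%. All shHMGA1 libraries lay above all RIS+shHMGA1 libraries. The lowest growing value belonged to replicate 4 and the highest RIS value to replicate 2. Without them growing ran from 61.2% to 104% and RIS from 40.2% to 54.8%. The percentages depend on the transcript lengths: with union exon lengths the medians were 182%, 185%, 120% and 119% in growing, shHMGA1, RIS and RIS+shHMGA1.

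**Figure D1:**
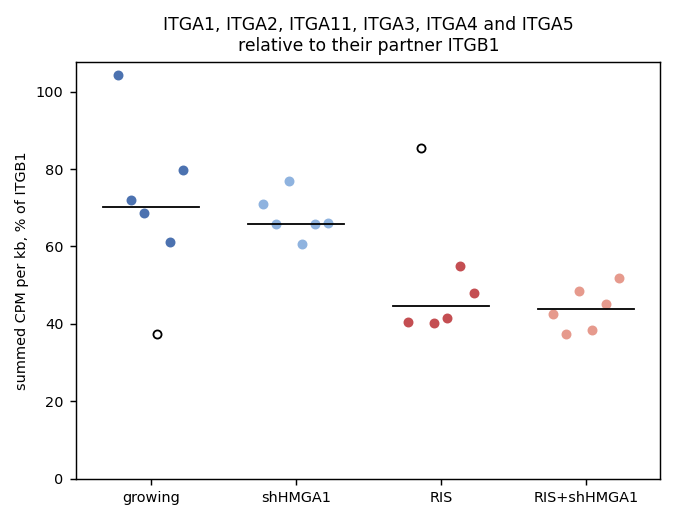
Summed level of *ITGA1*, *ITGA2*, *ITGA11*, *ITGA3*, *ITGA4* and *ITGA5* (CPM per kb of canonical transcript) as a percentage of *ITGB1* in each library, by group; lines are medians of 6 and open points are growing replicate 4 and RIS replicate 2. The shHMGA1 libraries (60.7% to 76.8%) all sit above the RIS+shHMGA1 libraries (37.4% to 52.0%).

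In hairpin cells, most of these integrin transcripts were lower with 4OHT, while that of the common β1 subunit stayed within the overlap of its groups. Of the 10 genes, 7 were called lower in RIS+shHMGA1 against shHMGA1 and none higher. A gene was called at a Benjamini-Hochberg false discovery rate (FDR) under 0.01 over all tested genes and an absolute log2 fold change over 0.58 in the edgeR quasi-likelihood test. Of all tested genes, 19.5% were called lower and 19.6% higher in this comparison. The median log2 fold change was −0.95 over the 10 genes and −0.02 over all genes tested. In 7 genes all 6 RIS+shHMGA1 libraries lay below all 6 shHMGA1 libraries, as they did in 22.5% of all genes.

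The collagen receptor subunits were all called lower. α1β1 and α2β1 bind collagen IV and fibrillar collagen respectively with some preference, and α11β1 is a receptor of fibrillar collagen made mainly by mesenchymal cells. *ITGA1* had 213 CPM in the lowest shHMGA1 library, 254 at the median and 322 in the highest, against 66.9, 111 and 174 in RIS+shHMGA1. The groups did not overlap, and the log2 fold change was −1.20 (SE 0.34, adjusted p = 0.00477). *ITGA11* had 189, 246 and 294 CPM in shHMGA1 against 112, 120 and 147 in RIS+shHMGA1. Every hairpin library with 4OHT was again below every one without, with a log2 fold change of −0.97 (SE 0.26, adjusted p = 0.00306). *ITGA2* had 532, 620 and 907 CPM in shHMGA1 and 277, 344 and 562 in RIS+shHMGA1. These groups overlapped through RIS+shHMGA1 replicate 5, the library at 562 CPM, and the log2 fold change was −0.83 (SE 0.24, adjusted p = 0.00544).

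The largest difference was in *ITGA4*, the α subunit of the VCAM1 and fibronectin receptor. It had 19.3, 24.3 and 29.4 CPM in the lowest, median and highest shHMGA1 library and 2.87, 5.38 and 7.92 CPM in RIS+shHMGA1. No library overlapped with the other group, and *ITGA4* stood at 0.216 times its shHMGA1 level, a log2 fold change of −2.21 (SE 0.44, adjusted p = 0.000442). These are the lowest levels among the 10 genes, resting on 28 to 79 reads per RIS+shHMGA1 library. *CERKL*, on the opposite strand, had 0.386 to 7.57 CPM over the libraries of all groups, and its level in RIS+shHMGA1 alone is not given here. *ITGA5*, the main fibronectin receptor subunit, had 476, 539 and 650 CPM in shHMGA1 against 324, 369 and 433 in RIS+shHMGA1. Its groups did not overlap, but at a log2 fold change of −0.54 (SE 0.18, adjusted p = 0.0127) it passed neither limit. *ITGA3*, the laminin receptor subunit, had 234, 278 and 324 CPM against 136, 144 and 160. The RIS+shHMGA1 libraries lay close together and all below the shHMGA1 libraries, and the log2 fold change was −0.93 (SE 0.24, adjusted p = 0.00268).

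Among αV and its partners, *ITGAV* and *ITGB5* were called lower and *ITGB1* and *ITGB3* were not. *ITGAV* had 263, 305 and 342 CPM in the lowest, median and highest shHMGA1 library and 108, 141 and 173 CPM in RIS+shHMGA1. The groups did not overlap, with a log2 fold change of −1.13 (SE 0.21, adjusted p = 0.000328). *ITGB5*, whose product makes the vitronectin receptor αVβ5, had 331, 387 and 426 CPM against 159, 172 and 239. It stood at 0.487 times its shHMGA1 level, again without overlap (log2 fold change −1.04, SE 0.27, adjusted p = 0.0026). *ITGB3* had 64.5, 79.4 and 105 CPM against 46.5, 70.8 and 77.8, overlapping groups with a log2 fold change of −0.26 (95% interval −0.61 to 0.09, adjusted p = 0.184). *ITGB1* had 1593, 1808 and 1903 CPM against 1305, 1641.5 and 1943. Its log2 fold change was −0.13 with a 95% interval of −0.38 to 0.11, which does not reach the size that a call needs, while the interval of *ITGB3* does.

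The calls of this comparison changed with the replicate number left out, and the cause was not tested. The estimate of spread in these fits is shared by all groups, and leaving out a number also makes each group smaller. Leaving out replicate number 1, 3 or 6 from all groups left 3, 2 and 4 of the genes called, with log2 fold changes of the same sign throughout. *ITGA4* and *ITGAV* were called whichever number was left out, and the other 5 lost the call in 2 to 4 of the 6 fits, with adjusted p of 0.01 to 0.0258. Without growing replicate 4 and RIS replicate 2, 7 of 10 were called lower (21.9% of all genes), and 7 or 8 were called when any replicate number was then also left out.

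The same question in cells with the empty vector had a less certain answer. With all 12 libraries, RIS against growing had 0 of 10 genes called and 0% of all genes called lower by edgeR, although 4407 of all genes and 2 of the 10 had an unadjusted p under 0.05, and DESeq2 called 829 genes, none of them an integrin of this set. *ITGA4* had 4.501, 34.0 and 41.4 CPM in the lowest, median and highest growing library and 5.29, 7.77 and 32.4 CPM in RIS. The lowest growing value was that of replicate 4 and the highest RIS value that of replicate 2. Its log2 fold change was −1.33 (SE 0.41, adjusted p = 0.036) with all libraries and −2.16 (SE 0.22, adjusted p = 8.24e-09) without this pair, when its groups no longer overlapped. It was the only member of the 10 of which that was true, and 19.3% of all genes were lower without overlap in this way.

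Without growing replicate 4 and RIS replicate 2, 5 of the 10 genes were called lower in RIS, beside 20.5% of all genes. They were *ITGA4*, *ITGB5*, *ITGAV*, *ITGA3* and *ITGA11*. *ITGB5* had 348 to 673 CPM in the 5 growing libraries and 204 to 358 CPM in the 5 RIS libraries, with a log2 fold change of −0.98 (SE 0.17, adjusted p = 3.46e-05). *ITGAV* had 212 to 439 CPM against 131 to 238, *ITGA3* 263 to 569 against 193 to 295, and *ITGA11* 204 to 395 against 128 to 248. Each of these ranges overlapped at the edge, and the log2 fold changes were −0.91 for *ITGAV* (adjusted p = 0.000115), −0.84 for *ITGA3* (adjusted p = 4.77e-05) and −0.79 for *ITGA11* (adjusted p = 0.000627). *ITGA5* had 701 to 1049 CPM against 511 to 791 and a log2 fold change of −0.54 (adjusted p = 0.00116), under the limit on fold. Leaving out a further replicate number gave 4 to 7 calls. With all libraries in place the same estimates were −0.52 for *ITGB5* (adjusted p = 0.172), −0.67 for *ITGAV* (adjusted p = 0.0363), −0.43 for *ITGA3* (adjusted p = 0.214), −0.38 for *ITGA11* (adjusted p = 0.3) and −0.29 for *ITGA5* (adjusted p = 0.261).

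*ITGA1* and *ITGA2* were uneven within the RIS group, and so were most other members and the profile over all genes. On the first principal component RIS replicates 5 and 6 had scores of 16.9 and 22.15. Replicates 1, 3 and 4 had 56.0, 60.7 and 62.1, and replicate 2 is of the pair that stood apart. *ITGA1* was at 111, 90.0 and 75.3 CPM in RIS replicates 1, 3 and 4, but at 265, 227 and 294 CPM in replicates 2, 5 and 6, next to 241 to 314 CPM in the growing libraries other than replicate 4. *ITGA2* followed the same division, with 408, 425 and 349 CPM in replicates 1, 3 and 4 and 647, 705 and 745 CPM in replicates 2, 5 and 6. In *ITGA11*, *ITGA3*, *ITGA4*, *ITGA5*, *ITGAV* and *ITGB5*, replicates 1, 3 and 4 also lay below replicates 2, 5 and 6. *ITGB5* had 216, 204 and 206 CPM against 605, 358 and 319 CPM. The nearest values were close in *ITGA3* (216 and 219 CPM) and *ITGAV* (158 and 162 CPM). *ITGB1* and *ITGB3* did not divide in this way. *ITGA1* and *ITGA2* were not called. For *ITGA1* the log2 fold change was −0.49 with all libraries (95% interval −1.18 to 0.20, adjusted p = 0.313) and −0.83 without the pair (95% interval −1.42 to −0.24, adjusted p = 0.0141). For *ITGA2* it was −0.16 (95% interval −0.65 to 0.34, adjusted p = 0.66) and −0.36 (95% interval −0.80 to 0.08, adjusted p = 0.15). On the same component, RIS+shHMGA1 replicates 5 and 6 had scores of 52.5 and 58.2, and its replicates 1 to 4 had 78.5 to 84.1. In these RIS+shHMGA1 replicates 5 and 6, *ITGA1* was at 174 and 138 CPM, against 66.9 to 123 CPM in replicates 1 to 4. *ITGA2* was at 562 and 369 CPM there, against 277 to 358 CPM. The cause of these divisions was not tested.

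*ITGB1*, the common β subunit, had a slightly higher estimate in RIS, within the overlap of its groups. Its growing libraries had 1778, 2169.5 and 2289 CPM at the lowest, median and highest, and its RIS libraries 2009, 2294.5 and 2609.5 CPM. The log2 fold change was 0.15 with a 95% interval of −0.09 to 0.39, and 0.15 without the pair. *ITGB3* had 70.5, 108 and 140 CPM in growing cells and 70.6, 99.4 and 126 CPM in RIS, a log2 fold change of −0.11 (95% interval −0.46 to 0.24, adjusted p = 0.653), or −0.26 without the pair (95% interval −0.60 to 0.09, adjusted p = 0.19).

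**Figure D2:**
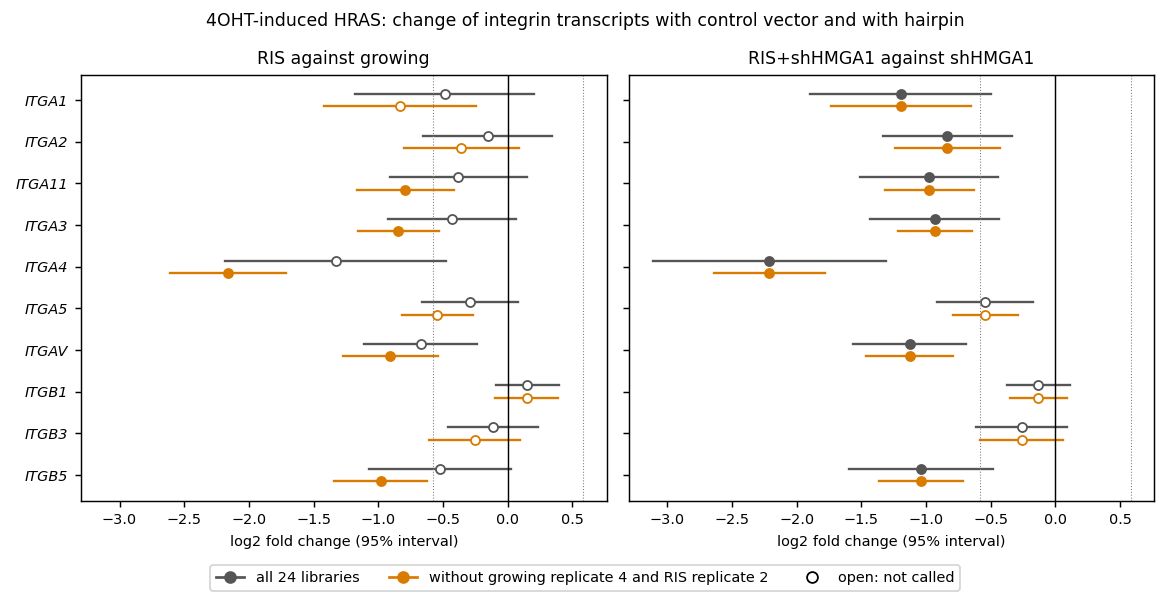
Log2 fold changes of the 10 integrin genes with 4OHT, with the empty vector on the left and with the hairpin on the right; points are edgeR estimates, bars 95% intervals, filled points are called, dotted lines mark 0.58, and grey and orange are fits with all 24 libraries and without growing replicate 4 and RIS replicate 2. *ITGA4* lies farthest from 0, at −2.16 and −2.21 in the fits without the pair, and *ITGB1* nearest to 0 in the hairpin cells.

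Whether the response to 4OHT differed between hairpin and vector cells was tested with the interaction term. It was called for 0 of 10 genes and 0% of all genes were called lower by edgeR, with 1371 genes but none of the 10 at an unadjusted p under 0.05, and 5 genes called by DESeq2, none of them among the 10. The estimates were below 0 for all 10 genes, and the lowest unadjusted p was that of *ITGA2* (log2 difference −0.68, 95% interval −1.38 to 0.02, adjusted p = 0.426). The median estimate was −0.51 over the 10 genes and −0.03 over all genes, and the share of all genes below 0 is not given here. Without growing replicate 4 and RIS replicate 2 these medians were −0.13 and −0.0048, and 9 of the 10 estimates were below 0. In that fit the estimate of *ITGA2* was −0.47 and that of *ITGA4* moved from −0.88 to −0.05 (95% interval −0.65 to 0.56). These intervals are wide enough to hold differences of the size of a call.

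In cells without 4OHT, no integrin gene passed the thresholds between hairpin and vector when all libraries were used. In shHMGA1 against growing, 0 of 10 genes were called by edgeR, with 2 of the 10 at an unadjusted p under 0.05 and none called by DESeq2, and 0.135% of all genes were called lower. *ITGA5* had 406, 834.5 and 1049 CPM in growing cells and 476, 539 and 650 CPM in shHMGA1, where only growing replicate 4 lay below the hairpin libraries. Its log2 fold change was −0.53 (SE 0.18, adjusted p = 0.198). The other 5 growing libraries, at 701 to 1049 CPM, lay above all 6 hairpin libraries, as they did in 3.62% of all genes. In the fit without growing replicate 4 and RIS replicate 2, *ITGA5* was called at −0.66 (SE 0.13, adjusted p = 0.00203), beside 1.39% of all genes called lower. That call was kept in 2 of the 6 fits that left out a further replicate number. *ITGB3* had the next lowest adjusted p without a call in this fit after *ITGA3*, with log2 fold changes of −0.46 (adjusted p = 0.0455) and −0.53 (adjusted p = 0.0189). *ITGA1*, *ITGA2* and *ITGAV* were close to 0 at −0.12, −0.04 and −0.05, and their 95% intervals reached −0.67, −0.47 and −0.39.

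In 4OHT-treated cells all 10 genes had lower estimates with the hairpin, as did 54.4% of all genes tested. *ITGA5* was the only gene of the 10 called in RIS+shHMGA1 against RIS, beside 0.786% of all genes called lower. *ITGA5* had 511, 583 and 903 CPM in the lowest, median and highest RIS library and 324, 369 and 433 CPM in RIS+shHMGA1. The groups did not overlap, and the log2 fold change was −0.78 (SE 0.18, adjusted p = 0.00942). The call was lost when any replicate number but 4 was left out (adjusted p = 0.0211 to 0.082, log2 fold change −0.84 to −0.62). Without growing replicate 4 and RIS replicate 2 it was −0.66 (SE 0.13, adjusted p = 0.0012) and was kept on leaving out each further number. In that fit the hairpin difference of *ITGA5* was of like size without and with 4OHT, −0.66 in each, with a difference between them of 0.00 (95% interval −0.37 to 0.37).

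*ITGB1* and *ITGA3* were the other genes whose RIS+shHMGA1 libraries all lay below the RIS libraries, as was the case for 5.23% of all genes. *ITGB1* had 2009 to 2609.5 CPM in RIS and 1305 to 1943 CPM in RIS+shHMGA1. Its log2 fold change of −0.50 (SE 0.12, adjusted p = 0.00975) passed the limit on FDR but not the limit on fold, and without the pair it was −0.54 (adjusted p = 0.00176). *ITGA3* had 193, 218 and 482 CPM in RIS against 136, 144 and 160 in RIS+shHMGA1. It missed the FDR limit at −0.87 (SE 0.24, adjusted p = 0.016) and was called without the pair at −0.62 (SE 0.15, adjusted p = 0.00333), when 2.5% of all genes were called lower. *ITGA4* had overlapping values, and its estimate went from −1.17 (adjusted p = 0.0407) to −0.56 (adjusted p = 0.0538) without the pair. The remaining estimates with all libraries ran from −0.77 for *ITGB5* to −0.36 for *ITGAV*, whose interval of −0.79 to 0.07 included 0.

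**Figure D3:**
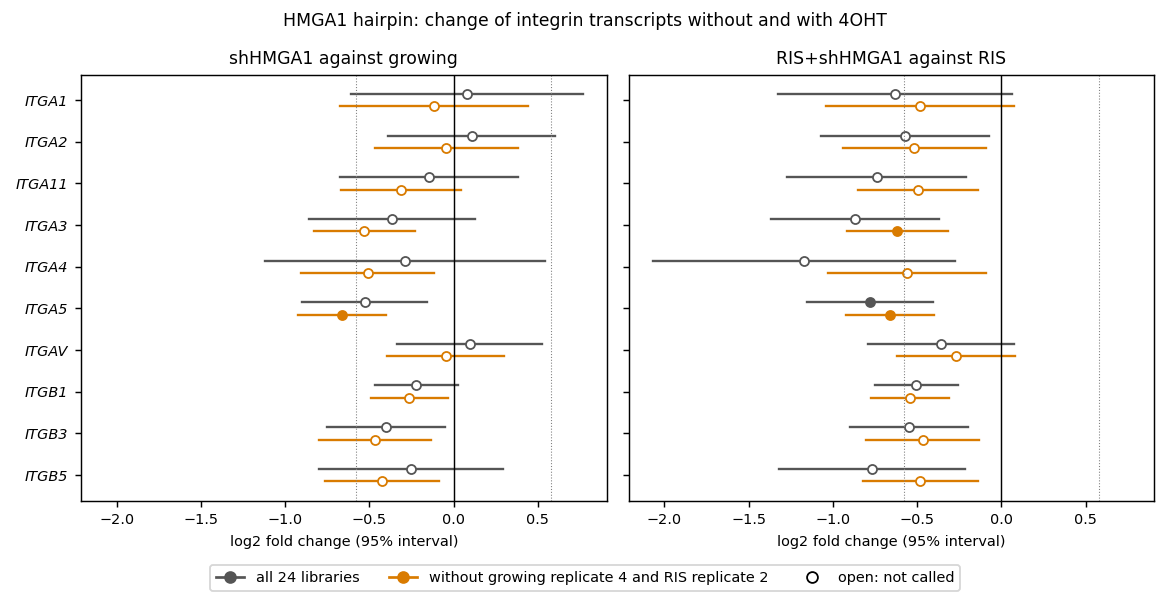
Log2 fold changes of the 10 integrin genes with the *HMGA1* hairpin, without 4OHT on the left and with 4OHT on the right; points are edgeR estimates, bars 95% intervals, filled points are called, dotted lines mark 0.58, and grey and orange are fits with all 24 libraries and without growing replicate 4 and RIS replicate 2. *ITGA5* is called at −0.78 and −0.66 with 4OHT and, in the fit without the pair, at −0.66 without 4OHT.

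Ratios of counts between 2 integrin genes of the same library need no library size, and 5 ratios were compared in the 4 contrasts between groups with exact two-sided permutation tests, adjusted over all 20. Among the fibronectin receptors, the log2 ratio of *ITGA4* to *ITGA5* lay between −4.96 and −4.10 in shHMGA1 and between −6.90 and −5.74 in RIS+shHMGA1. The groups did not overlap, and the difference was −1.67 (exact permutation p = 0.00216, the smallest that 6 against 6 allows, adjusted p = 0.0432). The log2 ratio of *ITGB3* to *ITGB5*, both partners of αV, was −2.25 ± 0.16 (SD, n = 6) in shHMGA1 and −1.46 ± 0.50 in RIS+shHMGA1. The difference of 0.79 had an exact permutation p = 0.0108 and did not pass after adjustment (adjusted p = 0.108). Among the collagen receptors, the ratio of *ITGA2* to *ITGA1* was higher by 0.40 in RIS+shHMGA1 than in shHMGA1 (exact permutation p = 0.0498, adjusted p = 0.249), and the ratios of *ITGA11* to *ITGA1* and to *ITGA2* differed by 0.29 and −0.11 (adjusted p = 0.44 and 0.79 in exact permutation tests). In RIS against growing the ratio of *ITGA4* to *ITGA5* differed by −1.09 (exact permutation p = 0.0411, adjusted p = 0.249) and, without the pair of libraries, by −1.63 (exact permutation p = 0.00794, the smallest that 5 against 5 allows, adjusted p = 0.072). No ratio passed in the remaining contrasts, with or without the pair.

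Across the 24 libraries, log2 CPM of *ITGA11* and *ITGB5* had a Pearson r of 0.98, the highest among the 45 pairs of these genes, and *ITGA2* and *ITGB3* had the lowest at 0.20. The 17 pairs with *ITGB1* or *ITGB3* had r of 0.199 to 0.746 with a median of 0.384, and the other 28 pairs 0.564 to 0.983 with a median of 0.853. These values describe 24 libraries that share group, treatment and normalisation. Without growing replicate 4 and RIS replicate 2 the ranges were 0.175 to 0.739 and 0.554 to 0.979. Over all 13356 genes, *ITGB5* was also the gene most like *ITGA11*, followed by the cyclin gene *CCND1* (r = 0.98 each). The genes most like *ITGB5* were the plexin gene *PLXNB2* and the metalloproteinase inhibitor gene *TIMP2* (r = 0.99 each). The pattern of *ITGA4* was most like those of *FBLN1*, which encodes a matrix glycoprotein, and *TRHDE* (r = 0.99 and 0.98). *ITGA1* was most like the prostaglandin receptor gene *PTGFR* and *RTTN* (r = 0.96 each), and *ITGA2* like *CEMIP2* and the glucocorticoid receptor gene *NR3C1* (r = 0.98 and 0.97). *ITGA3* was most like the anion exchanger gene *SLC4A2* and the vault protein gene *MVP* (r = 0.99 each), and *ITGA5* like *GBF1* and *OGDH*, a Golgi trafficking factor and a mitochondrial dehydrogenase (r = 0.98 each). *ITGAV* was most like *SEMA3A* and *PHTF2* (r = 0.97 each), and *ITGB1* like the tRNA synthetase gene *EPRS1* and *HIF1A* (r = 0.99 and 0.95). *ITGB3*, with *SMG6* (r = 0.91) and *TP53I11* (r = 0.90), had the least close neighbours of the 10.

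The remaining integrin subunits were mostly near the detection limit. Of 16 other subunits, 6 passed the filter. The other 10 had at most 19 reads in any library and included *ITGAL*, *ITGAM* and *ITGB2* of leukocytes and *ITGA2B* of platelets. In RIS+shHMGA1 against shHMGA1, 2 were called higher and 3 lower, where 19.6% of all genes were called higher and 19.5% lower. The genes called higher, *ITGB8* and *ITGAX*, had at most 4 reads and 1 read in any shHMGA1 library. They passed the filter through libraries where they were higher, so a lower call was hardly open to them. *ITGA8*, which binds nephronectin as α8β1, had 10.5 to 20.9 CPM in shHMGA1 and 1.18 to 3.41 CPM in RIS+shHMGA1 (log2 fold change −3.16). *ITGA6*, a laminin receptor subunit, had 97.5 to 163 CPM against 25.7 to 62.4 CPM (log2 fold change −1.6), and *ITGA10*, another collagen receptor subunit, 2.24 to 5.35 against 0.439 to 1.78 CPM (log2 fold change −1.67). *ITGB8*, whose product joins αV to bind latent TGF-β, was higher, with 0.0727 to 0.360 CPM in shHMGA1 and 0.602 to 1.65 CPM in RIS+shHMGA1 (log2 fold change 2.38). *ITGAX*, known from myeloid cells, was called higher with at most 1 read in any shHMGA1 library and 1.39 to 5.39 CPM in RIS+shHMGA1. These libraries held 3 leukocyte and platelet markers at 0 and no more than 1.48 CPM of that list in all.

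Of 34 integrin ligands 31 were tested, and in RIS+shHMGA1 against shHMGA1 20 were called lower and 4 higher, with a median log2 fold change of −1.53, where 19.5% of all genes were called lower and 19.6% higher. *COL3A1*, a fibrillar collagen chain, had 764 to 1172 CPM against 20.8 to 83.7 CPM (log2 fold change −4.44), and *COL1A1* had 5256 to 8837 CPM against 428 to 789 CPM (log2 fold change −3.68). *VCAM1*, the cell surface ligand of α4β1, was scarce, with 1.599 to 3.78 CPM in shHMGA1 and at most 3 reads in any RIS+shHMGA1 library. It is among the 20 called lower. Its medians were 0.839 CPM in growing, 0.042 in RIS and 0.114 in RIS+shHMGA1. *VCAM1* passed the filter through libraries where it was higher, so a higher call was hardly open to it. *SPP1*, which encodes osteopontin, was called higher with 0.872 to 1.85 CPM against 7.99 to 10.2 CPM (log2 fold change 2.62), as was *ICAM1*, a cell surface ligand of leukocyte integrins (log2 fold change 1.06). In RIS against growing, 0 of these were called with all libraries, and 20 lower and 3 higher without growing replicate 4 and RIS replicate 2. Of all genes, 20.5% were called lower and 19.2% higher without that pair.

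Of the adhesion plaque list, which holds the proteins that bind integrin tails and actin, 38 of 39 genes were tested. In RIS+shHMGA1 against shHMGA1, 19 were called lower and 4 higher, and the median log2 fold change was −0.69. Of all genes, 19.5% were called lower and 19.6% higher in this comparison. The scaffold gene *NEDD9* had 26.3 to 38.0 CPM in shHMGA1 and 0.695 to 3.84 CPM in RIS+shHMGA1 (log2 fold change −3.90). *LIMS2*, a partner of integrin-linked kinase, had 23.6 to 53.3 against 2.95 to 6.45 CPM (log2 fold change −3.10), and *VCL*, which encodes vinculin, 408 to 584 against 116 to 200.2 CPM (log2 fold change −1.68). *FERMT1* (kindlin-1), the kinase gene *FYN* and *PARVB* (β-parvin) were called higher, with log2 fold changes of 1.13, 0.81 and 0.76. Genes of integrin traffic and membrane partners showed no common direction. Of 24, 22 were tested, with 6 called higher and 5 lower in the same comparison and a median log2 fold change of −0.05. These counts are near the shares over all genes. *CAV1*, the main protein of caveolae, had 559 to 873 CPM against 98.5 to 176 CPM (log2 fold change −2.50). *RAB11FIP1* and the syndecan gene *SDC4* were also called lower, at −1.21 and −0.77, and the tetraspanin genes *CD9* and *CD63* and *ITGB1BP1*, whose product binds the β1 tail, were called higher at 1.07, 1.01 and 1.00.

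In RIS against growing without growing replicate 4 and RIS replicate 2, the plaque list had 20 genes called lower and 4 higher and the traffic list 4 lower and 7 higher, where 20.5% of all genes were called lower and 19.2% higher. The hairpin alone, in shHMGA1 against growing, called no gene of the 4 lists with all libraries, and without the pair 2 ligands, 3 plaque genes and 1 traffic gene, all lower. Without the pair 1.39% of all genes were called lower in that comparison. In RIS+shHMGA1 against RIS with all libraries, *COL1A1* (log2 fold change −2.67) and the tensin gene *TNS2* (log2 fold change −1.16) were called, both lower. No other gene of these lists was called, where 0.786% of all genes were called lower. Without the pair the calls there were 1 other subunit higher and 1 lower, 1 ligand higher and 8 lower, 3 plaque genes lower and 2 traffic genes higher. Of all genes, 10% were called higher and 2.5% lower in that fit.

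**Figure D4:**
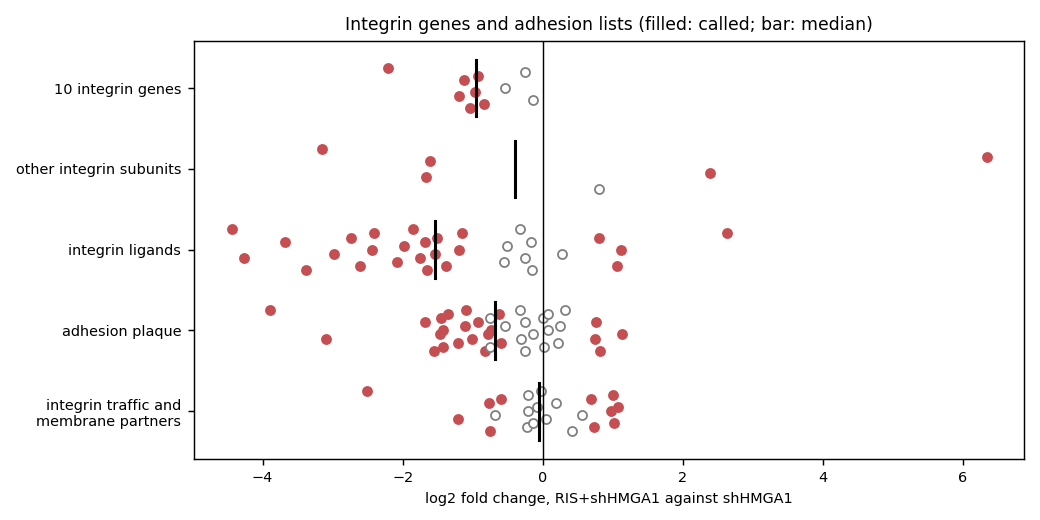
Log2 fold changes in RIS+shHMGA1 against shHMGA1 for the 10 integrin genes and for each tested gene of 4 related lists; filled points are called, vertical bars are list medians, and points are spread vertically only for legibility. Medians are −0.95 for the 10 integrin genes, −1.53 for ligands, −0.69 for the adhesion plaque and −0.05 for traffic and membrane partners; the point at the far right is *ITGAX*, which had at most 1 read in any shHMGA1 library.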

How the data were processed

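RNA-seq counts of 24 IMR90 samples were analysed, 6 in each group, grouped by sample title. Per the labels, libraries were made with a stranded mRNA kit, reads were mapped to hg19 with STAR 2.5.0b and trimmed with Cutadapt 1.10.0. The authors counted reads on genes with Rsubread and deposited raw counts per Entrez identifier. The annotation and strand setting are not given in the sources used here. Symbols came from RefSeq, which held 23696 of 25702 identifiers.

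Differential expression was tested with edgeR 4.0.16 (R 4.3.3, limma 3.58.1) by a quasi-likelihood fit of 4 group means on all 24 samples, after filterByExpr and TMM normalisation, with thresholds of FDR 0.01 (Benjamini-Hochberg over 13356 genes) and 0.58 on the log2 scale. CPM are on TMM library sizes, log2 CPM has a prior count of 2, and count ratios have a prior count of 2 on each count. RIS+shHMGA1 against growing was not tested, since both agent and hairpin differ. Total counts of 8698070 or more gave at least 28 reads for every integrin gene in every library, so spread between replicates limits the precision. Transcript lengths came from GENCODE on GRCh37. Named were all 10 genes, the 3 largest calls in each direction of each list in RIS+shHMGA1 against shHMGA1 and in shHMGA1 against growing, and the 2 tested genes most like each integrin gene. A gene that this rule would name is not reported here. The genes and lists were chosen with earlier results of these data known. Alternatives were DESeq2 1.42.0, RLE normalisation, other filters on low counts, a replicate block, a fit on the samples of each contrast, voom with sample weights, FDR 0.05, a prior count of 0.5 for ratios, and leaving out libraries. Added after seeing the data were union exon lengths, the sum of α subunits relative to *ITGB1*, and leaving out each replicate number besides the pair of libraries that stand apart. No library was a near copy of another. The tests were tried on simulated data.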

Additional observations from a re-analysis of the deposited data

Results flagged for a closer look

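In 44 sets of 6 values (log2 CPM of each of the 10 integrin genes and the log2 total count, in 4 groups), the highest or lowest value was tested for its gap to the nearest other value as a share of the range, with Dixon's 95% limit. Chance passes about 1 in 20 sets, and 5 passed. Growing replicate 4 was the lowest growing library for *ITGA1* (gap 0.823 of the range, 70.2 CPM where the others had 241 to 314) and for *ITGA4* (gap 0.782, 4.501 CPM where the others had 25.7 to 41.4). RIS+shHMGA1 replicate 6 was the lowest of its group for *ITGB3* (gap 0.629, 46.5 CPM). The total count was highest in growing replicate 1 (gap 0.707) and in RIS replicate 3 (gap 0.649). The causes were not tested.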

How the results depend on the processing

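The number of integrin genes called in RIS against growing was 0, 2 at an FDR of 0.05, 5 without growing replicate 4 and RIS replicate 2, 8 with voom and sample weights, and 0 to 2 on leaving out each replicate number. In RIS+shHMGA1 against shHMGA1 it was 8 with voom, 7 under the other settings, and 2 to 7 on leaving out each number. In shHMGA1 against growing it was 0, but 1 without that pair of libraries and 1 with voom. In RIS+shHMGA1 against RIS it was 1, but 5 at an FDR of 0.05, 2 with DESeq2, 0 without a filter on low counts, 2 without the pair, and 0 to 2 on leaving out each number. The interaction stayed at 0. Without the pair, 20.5% of all genes were called lower and 19.2% higher in RIS against growing. DESeq2 called 1573 of all genes in RIS+shHMGA1 against RIS. For voom, an FDR of 0.05, other filters and leaving out a number, the share of all genes called is not given here. The counts of integrin genes under those settings therefore cannot be set against it. Replicate numbers paired the samples only in part. Same-numbered pairs had a mean r of 0.18, against −0.05 for pairs of other numbers. Of 36 same-numbered pairs 24 had r over 0.1, the lowest was −0.59, and 8 of 24 samples were closest to their own number. The replicate block gave 2 calls in RIS+shHMGA1 against RIS, changed no other count, and took the *ITGA4*/*ITGA5* ratio to an adjusted p of 0.25 (exact sign-flip p = 0.0312, the smallest that 6 pairs allow). Neither that p nor the smallest of 5 against 5 libraries (exact permutation p = 0.00794) can pass alone over 20 tests, so the block and leaving out a number say nothing of the stability of this ratio. Signs of some uncalled differences turned. In shHMGA1 against growing, *ITGA1* became −0.12 without the pair, −0.086 with voom and −0.12 to 0.16 on leaving out each number, *ITGA2* −0.043, −0.041 and −0.019 to 0.16, and *ITGAV* −0.048 without the pair and −0.066 to 0.26 on leaving out. In the interaction, *ITGA5* became 0.0016 without the pair, and *ITGA4* went from −0.88, *ITGB3* from −0.15 and *ITGB5* from −0.52 to 0.061, 0.068 and 0.015 with voom. In RIS+shHMGA1 against RIS, the log2 *ITGB3*/*ITGB5*, *ITGA11*/*ITGA2* and *ITGA4*/*ITGA5* ratios became −0.017, 0.036 and 0.12 without the pair, and ran from −0.050 to 0.18, −0.18 to 0.042 and −0.30 to 0.033 on leaving out each number. In shHMGA1 against growing, *ITGA2*/*ITGA1* became 0.089 without the pair and reached 0.12 on leaving out. The causes were not tested.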
